A study of Mus musculus with 4 samples.

Results

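Growth hormone and prolactin receptor signalling was followed through 7 genes in single nucleus RNA sequencing (snRNA-seq) of mouse kidney cortex: the receptors *Ghr*, *Prlr* and *Igf1r*, the transcription factors *Stat5a* and *Stat5b*, the feedback inhibitor *Socs2* and the binding protein *Igfbp4*. They are 7 of 19609 genes with values, and all 7 have a row. The group was chosen by the *Ghr* values in 1 injured proximal tubule cluster after aristolochic acid I (AAI), where *Ghr* was among the genes furthest below normal tubule, and the other 6 genes were grouped with it as partners in the pathway. That contrast is therefore given below as a description.

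Growth hormone and prolactin bind class I cytokine receptors, which carry no kinase of their own and signal through the attached kinase JAK2. JAK2 phosphorylates STAT5A and STAT5B, which move to the nucleus and activate genes such as *Igf1*, *Cish* and *Socs2*, and SOCS2 in turn limits signalling from the growth hormone receptor. In many tissues growth hormone also acts through IGF-1, whose receptor is encoded by *Igf1r* and whose access to that receptor is restrained by binding proteins such as IGFBP4. The proximal tubule is a known site of growth hormone receptor expression in the kidney.

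The 4 conditions were studied with 1 male mouse each, all of mixed strain and all fed doxycycline; their age is not given in the sources used here. Control mice carried TRE-hKLF6 alone, a human *KLF6* transgene that stays silent without a transactivator. hKLF6 OE mice carried CAG-rtTA,TRE-hKLF6, in which a ubiquitous promoter drives the transactivator, so that induction of human *KLF6* is not limited to tubules. For each genotype, 1 mouse was without AAI (called untreated here) and 1 was killed 24 hours after 1 injection of 2 mg/kg AAI in DMSO. AAI is a plant nephrotoxin that damages DNA and is taken up by the proximal tubule. The paper names DMSO alone as the control injection of its AAI model. It does not state for this experiment whether the mice without AAI received it. Each value is the mean, over the nuclei of 1 cluster in 1 mouse, of counts scaled to 10000 per nucleus, and the table holds 23 clusters in 4 mice, or 92 columns. With 1 mouse per condition there is no spread between mice within a condition, so no test was made and no p-value or SD is given. A model with genotype and AAI as additive terms, which has 1 residual degree of freedom, was not used. The table does not give the nuclei or counts of single columns, and counting error could not be put as an interval. The share of genes at 0 reflects how thinly a column is filled. It was 15.1% to 23.1% in the normal proximal tubule (PT) clusters without AAI and at most 31.3% with AAI, but 40.8% to 62.6% in cluster InjuredPT-A of the untreated mice and 22.2% to 22.5% there with AAI. In the clusters outside the PT it was 20.6% to 63.4% without AAI and 18.1% to 63.4% with AAI.

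The genes lie on 4 chromosomes of the GRCm38 (mm10) genome. *Ghr* (ENSMUSG00000055737) spans chr15:3317760-3583492 on the minus strand, and *Prlr* (ENSMUSG00000005268) spans chr15:10177238-10349180 on the plus strand of the same chromosome. *Igf1r* (ENSMUSG00000005533) is at chr7:67952827-68233668 and *Socs2* (ENSMUSG00000020027) at chr10:95385362-95417180. *Stat5b* (ENSMUSG00000020919, chr11:100780731-100850724) and *Stat5a* (ENSMUSG00000004043, chr11:100859351-100885169) are neighbouring paralogs on opposite strands, and *Igfbp4* (ENSMUSG00000017493) lies on the same chromosome at chr11:99041244-99054392. Since *Stat5a* and *Stat5b* are similar in sequence, reads could have been split between them. Nuclear reads include introns, so long genes collect more counts: *Ghr*, *Igf1r* and *Prlr* span 266, 281 and 172 kb, while *Stat5b*, *Socs2*, *Stat5a* and *Igfbp4* span 70.0, 31.8, 25.8 and 13.1 kb. Per 100 kb of span, the level in the normal PT of the control mouse was 29.0 counts per 10000 for *Ghr*, 16.7 for *Igfbp4*, 6.14 for *Igf1r* and 2.42 for *Stat5b*. On the same scale it was 1.84 for *Socs2*, 0.622 for *Stat5a* and 0.0214 for *Prlr*.

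Sequences upstream of these genes were searched for TTCNNNGAA, the palindromic core that STAT5 and other STAT factors bind, which reads the same on both strands. RefSeq windows from 250 bases before to 50 bases after each start site (GRCm38.p6) were held for 6 of the 7 genes, in 11 windows. The core was present in 1 of these 11, against 8.3% of 32851 windows of the same length over all genes. That 1 window belongs to an internal start of *Prlr*. Of the other pathway genes, *Bcl6*, a repressor that is itself a STAT5 target, had a window with 3 copies, which 11 of all windows (0.0335%) share. A match to these letters describes the sequence and is not evidence of binding, and a window without one says nothing about the factor. The 5′ window of *Ghr*, the receptor with the highest level, is shown beside both, on the gene's own strand with the core in capitals:
Ghr, chr15:3583303-3583602 (- strand): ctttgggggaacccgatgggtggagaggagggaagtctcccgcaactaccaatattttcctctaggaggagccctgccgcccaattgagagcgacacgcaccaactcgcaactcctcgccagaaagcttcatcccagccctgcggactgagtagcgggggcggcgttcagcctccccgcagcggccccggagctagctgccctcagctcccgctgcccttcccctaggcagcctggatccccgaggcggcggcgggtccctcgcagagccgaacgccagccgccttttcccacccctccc
Prlr, chr15:10223656-10223955 (+ strand): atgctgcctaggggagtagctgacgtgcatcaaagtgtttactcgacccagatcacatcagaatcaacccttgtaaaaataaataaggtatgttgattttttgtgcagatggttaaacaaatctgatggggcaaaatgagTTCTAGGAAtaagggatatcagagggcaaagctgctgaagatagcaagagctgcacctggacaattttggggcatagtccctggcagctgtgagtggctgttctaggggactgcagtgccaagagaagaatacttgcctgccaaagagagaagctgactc
Bcl6, chr16:23981234-23981533 (- strand): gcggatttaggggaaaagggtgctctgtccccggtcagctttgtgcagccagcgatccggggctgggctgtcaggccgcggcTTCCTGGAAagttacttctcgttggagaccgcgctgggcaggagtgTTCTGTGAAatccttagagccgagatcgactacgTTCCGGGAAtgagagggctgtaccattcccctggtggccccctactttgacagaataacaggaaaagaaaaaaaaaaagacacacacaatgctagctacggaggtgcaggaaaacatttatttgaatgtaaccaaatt
The *Prlr* copy TTCTAGGAA starts at position -110 from the start site. The *Bcl6* copies TTCCTGGAA, TTCTGTGAA and TTCCGGGAA start at -168, -122 and -88, and the window of the upstream *Bcl6* start holds 1 further copy, TTCTCAGAA, at -118.

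*Ghr*, the growth hormone receptor, was highest in the proximal tubule. Its level followed the order PT-S3-2, PT-S3-3, PT-S3-1, PT-S1-S2-2 and PT-S1-S2-1 in each of the 4 mice. In PT-S3-2 it was 183 counts per 10000 in the control mouse, 240 in the control mouse with AAI, 139 in the hKLF6 OE mouse and 199 in the hKLF6 OE mouse with AAI. In PT-S1-S2-1 the same mice had 24.2, 36.5, 22.1 and 32.7. PT-S3-2 was thus 6.10 to 7.57 times PT-S1-S2-1 within each mouse, a gradient toward the straight S3 segment. Over all 92 columns *Ghr* ranged from 5.84 to 240 with a median of 13.8, and it was above 0 in each. When the clusters were ordered by their mean, the ranges over the 4 mice overlapped for each of the 22 pairs of neighbours, so adjacent places in the order over all mice are not separated.

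**Figure D1:**
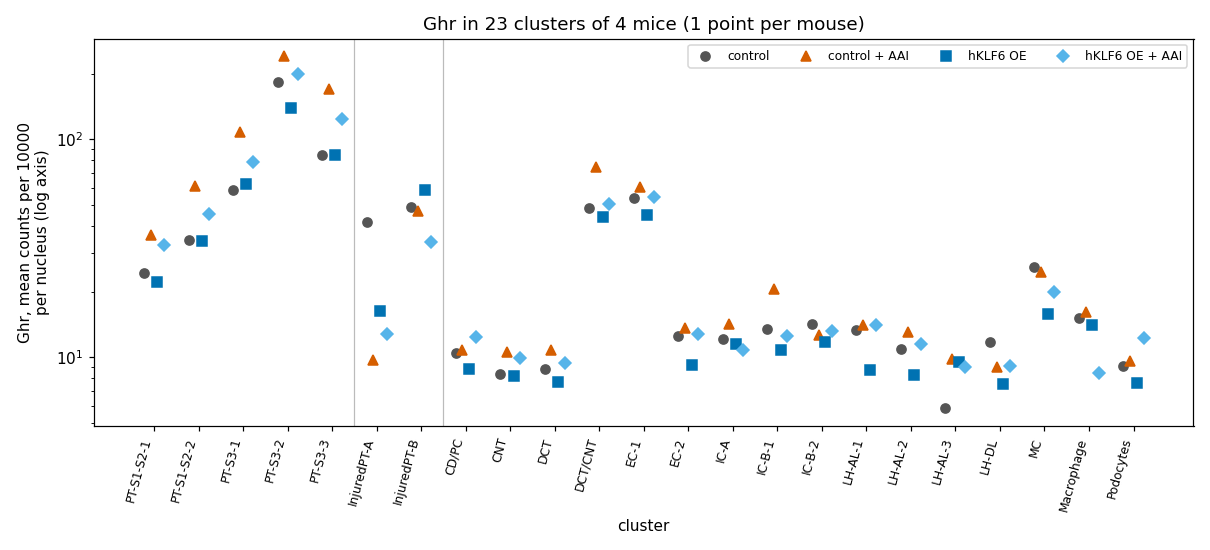
*Ghr* level (mean counts per 10000 per nucleus, log axis) in 23 clusters, with 1 point per mouse. The 5 normal PT clusters are at the left, the 2 injured clusters between the grey lines and the 16 other clusters at the right. PT-S3-2 holds the highest points, 139 to 240, and the InjuredPT-A points of the AAI-treated mice (9.72 and 12.8) lie among those of the other clusters.

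Outside the PT, *Ghr* ranged from 5.84 to 74.8, and PT markers moved with it. EC-1 and DCT/CNT had the most, with 44.7 to 60.4 counts per 10000 in EC-1 and 43.9 to 74.8 in DCT/CNT. In these clusters *Slc5a12*, *Slc34a1*, *Lrp2*, *Slc27a2* and *Keg1*, 5 genes that define the PT, stood at 51.1% to 85.3% of their normal PT level in the same mouse, and *Ghr* at 49.0% to 69.9%. In the distal convoluted tubule (DCT), which those genes should not mark, they stood at 6.62% to 26.6% and *Ghr* at 8.81% to 11.5%. Across the 64 columns of the 16 other clusters, *Ghr*, as a percentage of its normal PT level, exceeded all 5 markers in 0 columns and the median marker in 9. *Ghr* was therefore above the range of the PT markers in none of these clusters. In EC-2 it was below all 5 markers in each mouse, such as 16.2% against 18.1% or more in the control mouse. The same held in some columns of other clusters. The part of stray PT RNA or mixed nuclei in the *Ghr* level of these clusters was not tested.

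**Figure D2:**
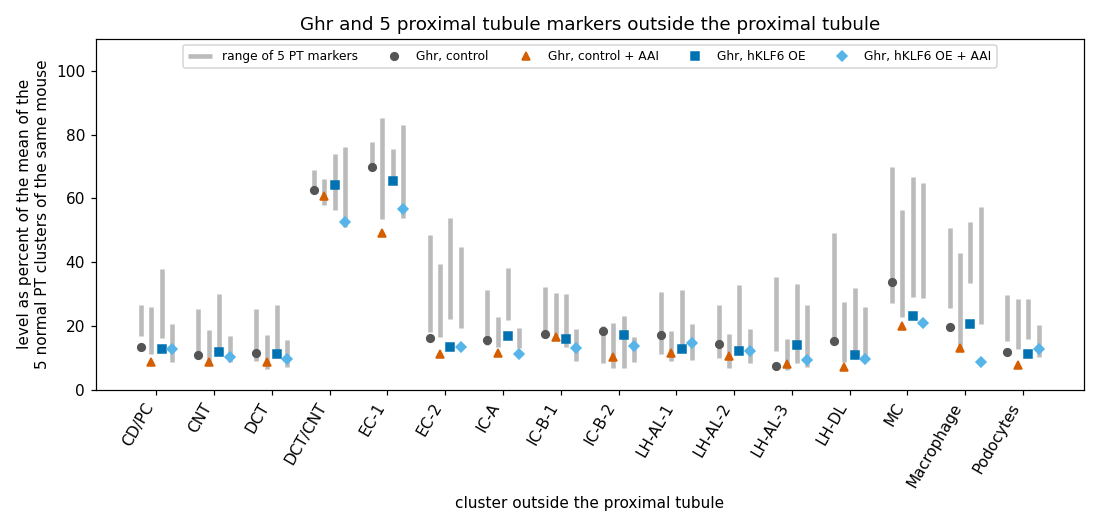
*Ghr* (points, 1 per mouse) and the range of 5 PT markers (grey bars) in the 16 clusters outside the PT, as percent of the mean of the 5 normal PT clusters of the same mouse. The *Ghr* points lie at or below the top of each bar, and EC-1 and DCT/CNT stand out for both, with markers at 51.1% to 85.3%.

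The genes with the most similar pattern to *Ghr* were *Slc16a9* (Pearson r = 0.94), *Enpp3* (r = 0.93), the long noncoding RNA *Gm35281* (r = 0.93), *Acss2* (r = 0.92) and *Acsm1* (r = 0.92). These are correlations of log2(value + 1) over the 92 columns, among 4272 genes with a mean of at least 0.5. The columns share 4 libraries, so r is a description. *Slc16a9* encodes a carnitine transporter, *Acss2* makes acetyl-CoA in the cytosol and *Acsm1* activates medium-chain fatty acids.

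*Prlr*, the prolactin receptor, was close to the detection limit in most clusters and was listed at 0 in 42 of 92 columns. It was highest in the intercalated cell clusters that express pendrin (*Slc26a4*). In IC-B-2 it was 1.22 in the control mouse, 0.743 in control with AAI, 0.423 in hKLF6 OE and 2.35 in hKLF6 OE with AAI. The IC-B-2 columns had 46.3% to 53.0% of genes at 0. In IC-B-1 the values were 0.425, 0.272, 0.151 and 0.113. No other cluster had *Prlr* above 0.1 in more than 1 mouse, and DCT, LH-AL-1, LH-AL-3 and Macrophage had 0 in all 4. MC had 0.333 in the hKLF6 OE mouse with AAI and at most 0.0718 in the others. The PT stood out in 1 mouse: with AAI, the control mouse had 0.371 in PT-S3-2 and 0.696 in PT-S3-3, where the other 3 mice had 0.00792 to 0.0685 and 0.0202 to 0.0481. Its closest genes by pattern were *4930469K13Rik* (r = 0.83), the potassium channel *Kcnq3* (r = 0.82) and the nuclear receptor *Rorb* (r = 0.76).

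*Igf1r*, the IGF-1 receptor, was broad but also highest in the PT. It was 12.5 to 21.3 counts per 10000 in the 5 normal PT clusters and 1.52 to 15.6 in the 16 others, and unlike *Ghr* it had no gradient among PT segments, with PT-S3-2 at 0.810 to 1.15 times PT-S1-S2-1. Below the PT came EC-1 (12.9 to 15.6), LH-AL-1 (11.6 to 14.3) and DCT/CNT (10.3 to 14.5), while intercalated clusters had the least. EC-1 and DCT/CNT also carried PT markers, as given above, and the part of PT RNA in their *Igf1r* was not tested. In EC-2, where the endothelial markers were highest, *Igf1r* was 4.93 to 5.96. The nearest genes in pattern were *Nuak2* (r = 0.82), *Inpp5f* (r = 0.80) and *Arhgap32* (r = 0.78).

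*Stat5b* was above *Stat5a* per 100 kb in the normal PT (2.42 against 0.622 in the control mouse) and was more even over the clusters than *Ghr*. In the mean of the 5 normal PT clusters, *Stat5b* was 1.69 in control, 1.91 in control with AAI, 1.74 in hKLF6 OE and 1.72 in hKLF6 OE with AAI. *Stat5a* was 0.161, 0.210, 0.219 and 0.173 there. Its highest values were in the ascending limb: 0.435 to 0.618 in LH-AL-1, 0.369 to 0.625 in LH-AL-2 and 0.128 to 0.708 in LH-AL-3. The DCT, at 0.369 to 0.430, overlapped LH-AL-2 and LH-AL-3. *Stat5b* was 1.92 to 2.21 in PT-S3-2. Its single highest value, 3.57, was in Macrophage of the hKLF6 OE mouse with AAI, a column with 56.9% of genes at 0. The other mice had 1.16 to 1.89 in Macrophage. The nearest patterns were *Lrrk2* (r = 0.63), *Sema4d* (r = 0.61) and *Nhsl2* (r = 0.61) for *Stat5b*, and *Stk32b* (r = 0.63), *Bicdl1* (r = 0.61) and *Egf* (r = 0.61) for *Stat5a*.

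*Socs2*, which is induced by STAT5 and restrains the growth hormone receptor, had its most even high level in the DCT, with 1.59, 1.09, 1.47 and 1.17 in control, control with AAI, hKLF6 OE and hKLF6 OE with AAI. Single higher values occurred in the control mouse alone, in columns with 62.0% and 60.7% of genes at 0. *Socs2* was 2.05 there in LH-AL-3 and 2.05 in LH-DL, where the other mice had 0.127 to 0.234 and 0 to 0.379. Within the PT it was highest in PT-S3-2 and next in PT-S3-3 in the 3 mice other than hKLF6 OE with AAI, with PT-S3-2 at 2.43 to 3.79 times PT-S1-S2-1. Its best matches in pattern were weak: *Coq5* (r = 0.57), *Kyat3* (r = 0.46) and *Lamb1* (r = 0.45).

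*Igfbp4*, which binds IGF and keeps it from the receptor, had the reverse gradient to *Ghr* within the PT. It was 3.31 to 4.10 in PT-S1-S2-1, 2.88 to 3.85 in PT-S1-S2-2 and 2.10 to 2.83 in PT-S3-1, against 0.617 to 1.92 in PT-S3-3 and 0.505 to 1.14 in PT-S3-2, in the same order in all 4 mice. Outside the PT it was highest in the mesangial cluster MC, at 2.58 to 4.56. Its values in InjuredPT-A of the untreated mice, 5.73 and 5.95, were the highest of all columns, but they come from the columns with 40.8% to 62.6% of genes at 0. *Igfbp4* followed *Cyp4b1* (r = 0.84), *Tcn2* (r = 0.84) and *Ugt2b38* (r = 0.81).

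**Figure D3:**
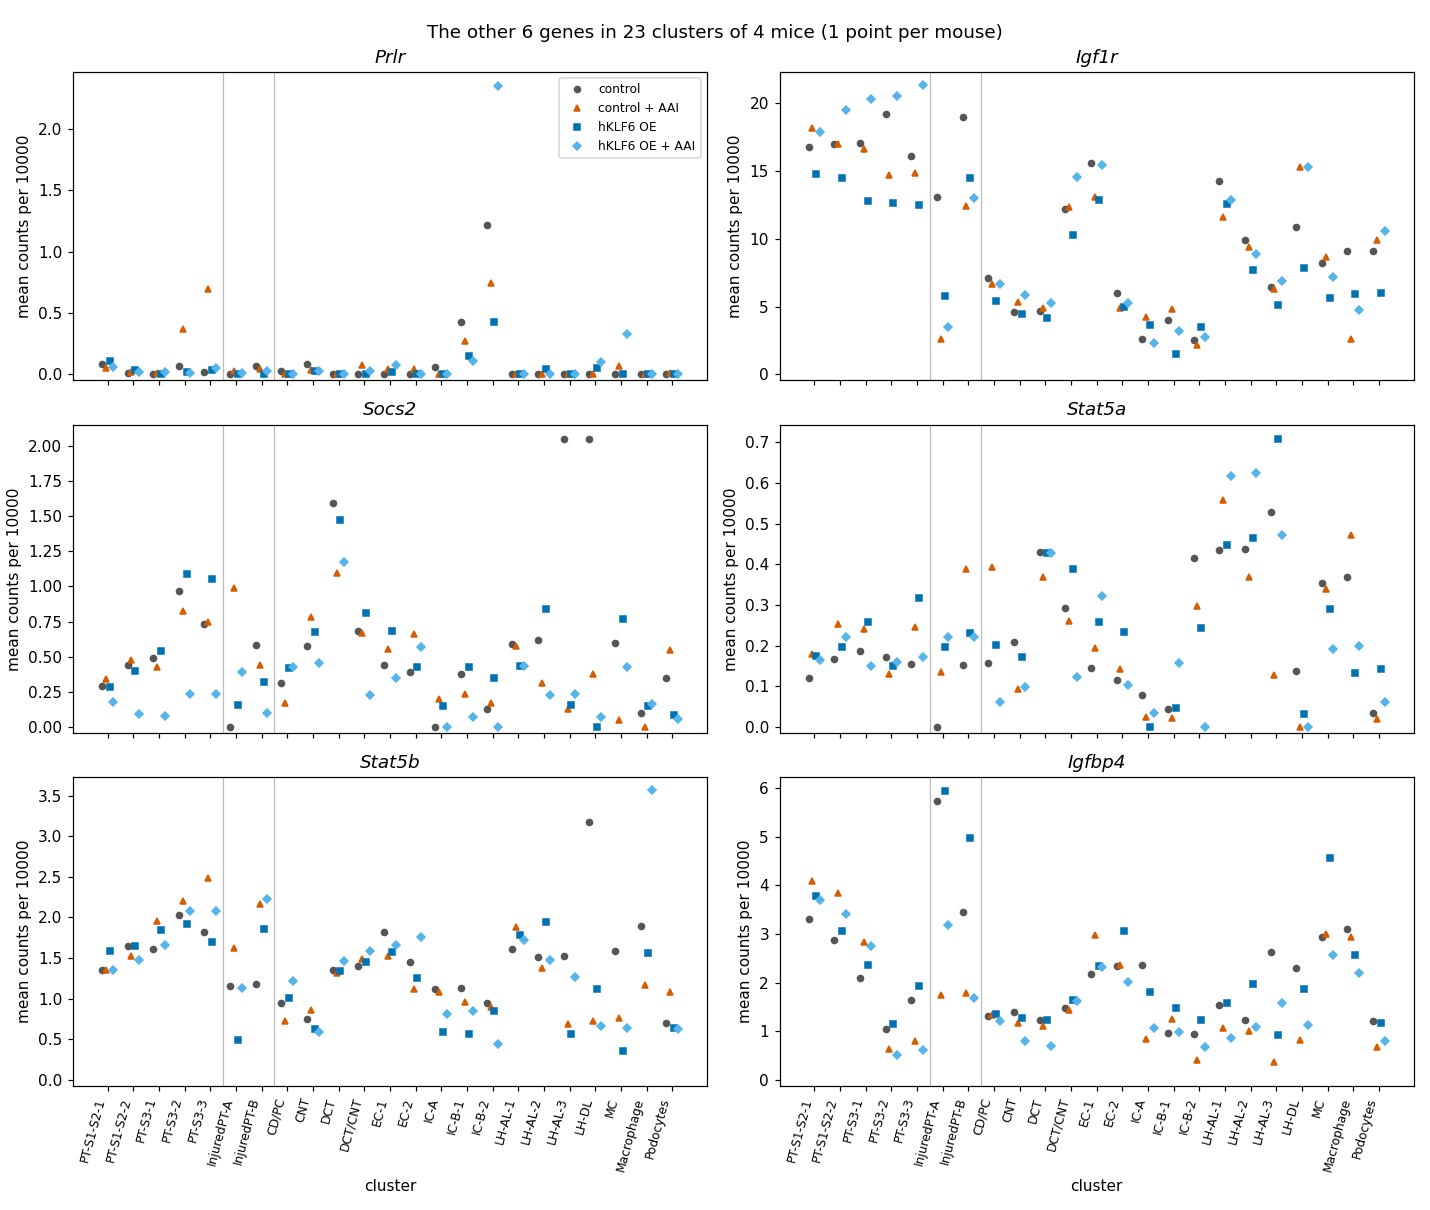
Levels of the other 6 genes (mean counts per 10000 per nucleus, linear axes that differ between panels) in 23 clusters, with 1 point per mouse and the clusters in the order PT, injured PT, others. *Prlr* is near 0 except in IC-B-1, IC-B-2, 2 PT-S3 clusters of the control mouse with AAI and MC of the hKLF6 OE mouse with AAI (0.333), and *Igf1r* is highest in the PT, at 12.5 to 21.3.

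InjuredPT-A and InjuredPT-B are the 2 injured PT clusters. Of the injured tubule markers, *Polr2a* (mean 12.6), *Klf6* (3.69) and *Lcn2* (0.0283) were highest in InjuredPT-A. *Cxcl1* (2.30), *Krt20* (0.395) and *Havcr1* (0.382) were highest in InjuredPT-B. *Cxcl1* was next in InjuredPT-A, at 1.83, and *Lcn2*, *Krt20* and *Havcr1* were below 0.5. In each AAI-treated mouse both injured clusters were set against the average of its own 5 normal PT clusters. A gene was counted when its larger value was at least 0.5 and its difference on the log2(value + 1) scale was at least 0.2 in the same direction in both mice. In InjuredPT-A, *Ghr* was 9.72 against 123 in the control mouse with AAI, a difference of -3.53, and 12.8 against 96.0 in the hKLF6 OE mouse with AAI, a difference of -2.81. These are the values that chose the genes. By the smaller of both differences, *Ghr* was second among all genes, after *Gramd1b* (-3.24), a carrier of cholesterol, and before the nuclear receptor *Esrrg* (-2.74), the phosphodiesterase *Pde4d* (-2.68), *Snx29* (-2.61) and *Lrmda* (-2.60). *Igf1r* was 2.62 against 16.3 and 3.51 against 19.9, with differences of -2.25 and -2.21, and stood at place 15.

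Of the 7 genes, 4 passed the filter in both mice, and *Ghr* and *Igf1r* were lower, 0 were higher and 2 were neither. Over all genes 27.0% of 5008 were lower and 43.3% higher. Among genes over 100 kb, the class of *Ghr* and *Igf1r*, 71.6% of 1082 were lower and the median difference was -0.51 and -0.50 in the 2 mice. Lower values were thus the usual state of long genes in InjuredPT-A. *Ghr* was chosen for its low values in this cluster, so its place below that median is a description. *Igf1r* also lay below it. The log2(value + 1) scale understates the change of low genes, and both receptors were high in the normal PT. *Stat5b* differed by -0.15 and -0.35. *Igfbp4* went opposite ways, 1.75 against 2.44 in the control mouse and 3.19 against 2.19 in the hKLF6 OE mouse. *Socs2* was 0.990 against 0.564 and 0.391 against 0.163, and the second pair was below the filter. *Prlr* and *Stat5a* were below the filter in both mice.

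*Ghr* lay below the PT markers in InjuredPT-A, as it did in EC-2. *Ghr* was chosen for its low values in InjuredPT-A, so this is a description. It stood at 7.89% of its normal PT level in the control mouse with AAI, where the 5 markers stood at 14.6% to 44.6%, and at 13.4% in the hKLF6 OE mouse with AAI, where they stood at 21.6% to 77.5%. Its values were close to those in the DCT of the same mice, 8.81% and 9.78% of normal PT. Of the 16 clusters outside the PT, 14 had more *Ghr* than InjuredPT-A in the control mouse with AAI and 5 in the hKLF6 OE mouse with AAI. In the thinly filled InjuredPT-A columns of the untreated mice it was 41.9 in control and 16.4 in hKLF6 OE.

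In InjuredPT-B the same receptor was lower by less. *Ghr* was 46.8 against 123 in the control mouse with AAI and 33.8 against 96.0 in the hKLF6 OE mouse with AAI, with differences of -1.38 and -1.48, and stood at place 11. It was at 38.0% and 35.2% of normal PT, where the 5 PT markers were at 22.3% to 60.8% and 26.6% to 54.6%, and so lay within their range. The size of the *Ghr* difference depended on the PT segment used as reference. In the same mice the PT-S3 clusters averaged 173 and 134. The PT-S1-S2 clusters averaged 48.7 and 39.1, near the InjuredPT-B values. In the thinly filled InjuredPT-B columns of the untreated mice *Ghr* was 49.0 in control and 58.3 in hKLF6 OE. *Igf1r* differed by -0.36 and -0.57, and *Igfbp4* by -0.31 and -0.25. These 3 were lower among 4 genes that passed and 0 were higher, against 13.1% of 4148 genes lower and 23.4% higher in the background, and 27.1% lower among genes over 100 kb. *Stat5b* was 2.17 against 1.91 and 2.22 against 1.72, a difference of 0.13 and 0.24, so that only the second mouse reached 0.2. The sign for *Igfbp4* depended on the PT segment: against the 3 PT-S3 clusters alone it was higher in InjuredPT-B, by 0.20 and 0.23.

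**Figure D4:**
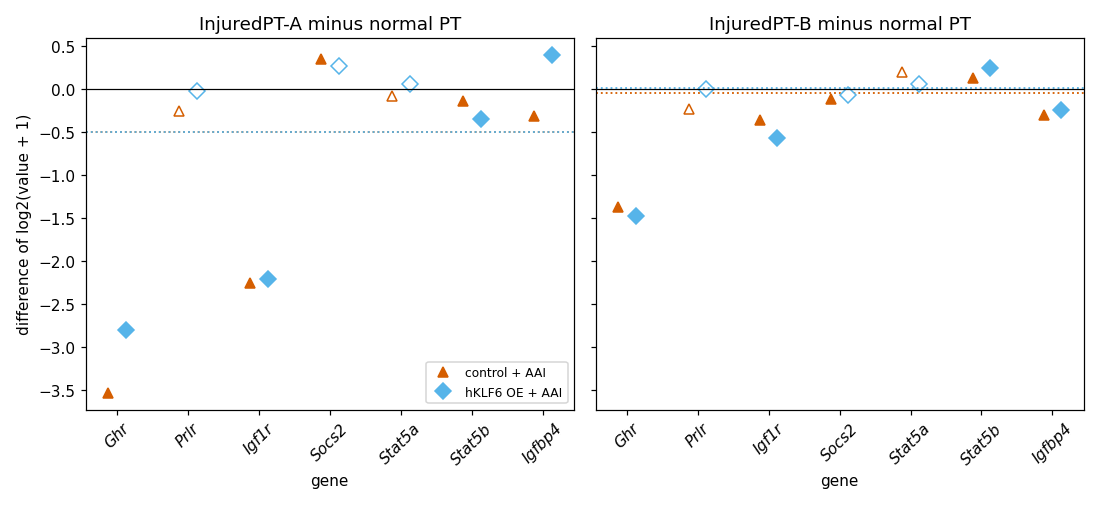
Difference of log2(value + 1) between each injured cluster and the normal PT of the same AAI-treated mouse, for the 7 genes. Filled points passed the filter on low values, open points did not, and dotted lines mark the median of genes over 100 kb in each mouse. *Ghr* (-3.53 and -2.81) and *Igf1r* (-2.25 and -2.21) lie far below the other genes in InjuredPT-A, and *Ghr* alone lies below -1 in InjuredPT-B.

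The other genes of the pathway were read from 10 lists of ligands, receptors, kinases, STAT factors, SOCS proteins, phosphatases, adaptors, IGF binding proteins and STAT5 targets, of which 73 genes that are not among the 7 have a row. In InjuredPT-A, 30 passed the filter, 10 were higher and 8 lower in both mice, with a median difference of 0.12 and 0.05, against 0.19 and 0.15 over all genes. These are 33.3% and 26.7% of the 30, against 43.3% higher and 27.0% lower over all genes, so the lists did not exceed the background in either direction. The higher genes were *Akt1*, *Bcl6*, *Il6st*, *Irs2*, *Pias4*, *Ptpn1*, *Ptpn11*, *Socs4*, *Socs7* and *Stat3*. The lower genes were *Foxo1*, *Gab1*, *Grb10*, *Igf2r*, *Igfbp7*, *Insr*, *Lifr* and *Pias1*. The largest positive differences were those of *Irs2*, an adaptor of the insulin and IGF-1 receptors, at 3.25 against 0.851 and 2.37 against 0.390, and of *Bcl6*, at 6.13 against 1.41 and 3.42 against 0.958. The most negative were those of the transcription factor *Foxo1*, at 1.14 against 2.45 and 1.31 against 2.95, and of the adaptor *Grb10*, at 0.297 against 0.955 and 0.296 against 1.06. Of the list of insulin and IGF receptors, 3 of 4 passed (*Igf1r*, *Igf2r* and *Insr*) and were lower, as were 27.0% of all genes and 71.6% of those over 100 kb. *Bcl6* was the 1 STAT5 target that passed.

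In InjuredPT-B, 27 of the 73 passed, 7 were higher (*Bcl6*, *Grb2*, *Il6st*, *Jak1*, *Ptpn2*, *Socs4* and *Stat3*) and 0 lower, with a median of 0.14 and 0.19 against 0.11 and 0.10 over all genes. The share higher was 25.9%, near the 23.4% of all genes, and 13.1% of all genes were lower. *Bcl6* was 2.93 against 1.41 and 2.21 against 0.958. *Stat3*, the main transducer of IL-6 family cytokines, was 2.93 against 1.45 and 2.44 against 1.41. The lowest of the list genes, *Lifr* (-0.17 and -0.32) and *Igfbp5* (-0.16 and -0.17), did not reach 0.2 in both mice. *Bcl6*, *Il6st*, *Socs4* and *Stat3*, or 4 of 26 that passed in both, were higher in both injured clusters, against 14.1% of 3995 genes, and both clusters were set against the same normal PT values.

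In the normal PT, *Ghr* was higher with AAI: 123 against 77.1 without AAI in control mice, or 1.60-fold, and 96.0 against 68.4 in hKLF6 OE mice, or 1.40-fold, with differences of 0.67 and 0.48. It was higher in each of the 5 normal PT clusters in both genotypes, by 1.31- to 2.01-fold in control and 1.25- to 1.48-fold in hKLF6 OE, which 2.98% and 5.80% of all genes were in the respective genotype. *Ghr* was the 1 gene of the 7 higher in both genotypes, and 0 were lower, with 5 passing the filter. In the background 7.66% of 3892 genes were higher and 5.83% lower, and among genes over 100 kb 10.9% were higher. In control *Ghr* had place 53 from the top of 4052 genes, of which 11.7% were higher, and in hKLF6 OE place 173 of 4133, of which 19.5% were higher. The normal PT of the AAI-treated mice is also the reference side of the comparisons above. Higher *Ghr* with AAI was not limited to the PT: its value was higher in 13 of the 16 other clusters in each genotype, by at least 0.2 in 7 of them in control and 10 in hKLF6 OE. In single clusters of these 16, 17.3% to 43.6% of all genes were higher in control and 22.3% to 42.1% in hKLF6 OE. Among genes over 100 kb it was 16.8% to 43.0% and 33.0% to 49.3%. PT markers were also detected in these clusters, as given above, and their part in the higher *Ghr* was not tested.

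**Figure D5:**
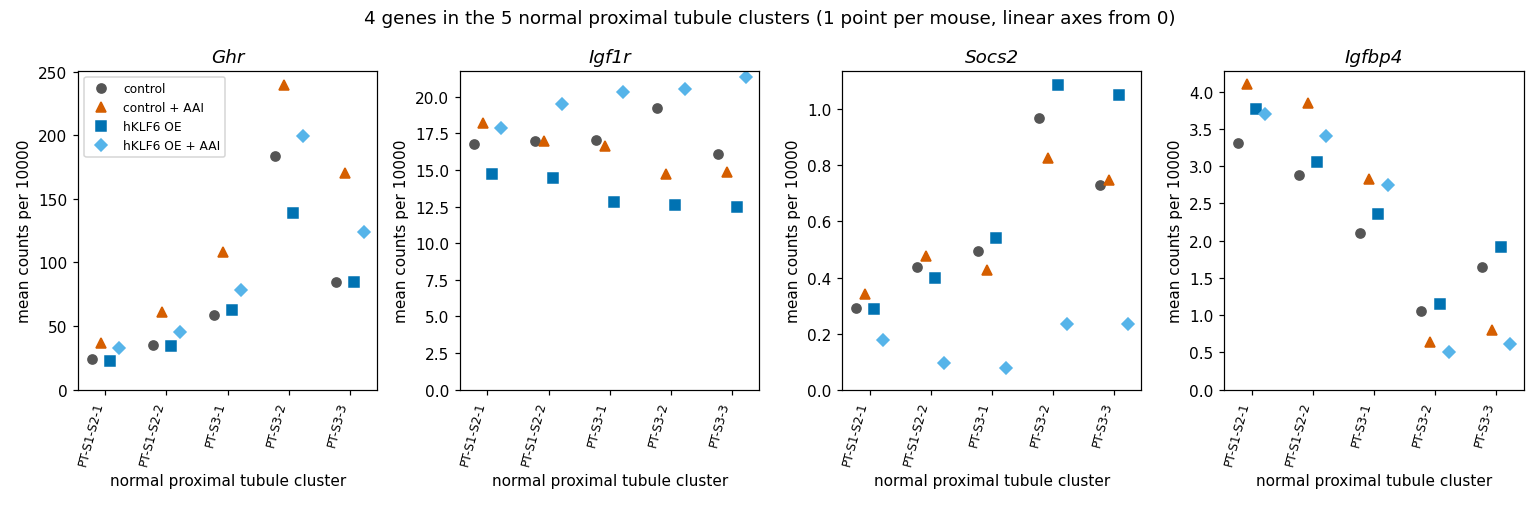
Levels of *Ghr*, *Igf1r*, *Socs2* and *Igfbp4* (mean counts per 10000 per nucleus, linear axes from 0) in the 5 normal PT clusters, with 1 point per mouse. *Ghr* is higher with AAI in each cluster and genotype, *Socs2* of the hKLF6 OE mouse with AAI (0.0775 to 0.234) lies below the other mice in each cluster, and *Igfbp4* declines from PT-S1-S2-1 to the S3 clusters.

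*Igf1r* was higher with AAI in the hKLF6 OE pair of mice and close to even in the control pair. It was 17.2 without and 16.3 with AAI in control, a difference of -0.08, and 13.4 without and 19.9 with AAI in hKLF6 OE, a difference of 0.54. In hKLF6 OE it was higher in 5 of 5 normal PT clusters, which 5.80% of 3364 genes also were, and in control in 1 of 5, and there by less than 0.2. Genes over 100 kb were also shifted in hKLF6 OE, where 33.0% were higher with AAI against 13.7% in control, and their median difference was 0.12 against 0.00. The part of gene length in the *Igf1r* difference was not tested.

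*Socs2* was lower with AAI in the hKLF6 OE mouse. In the mean normal PT it was 0.584 without and 0.564 with AAI in control, but 0.674 without and 0.163 with AAI in hKLF6 OE, 0.243 times as much. In that comparison 15.4% of all genes were lower, and 9.92% of those over 100 kb. *Socs2*, with a span of 31.8 kb, is not in that long class. Genes in the shortest span class had a median difference of -0.10 there, against 0.12 for genes over 100 kb. The part of gene length in the *Socs2* difference was not tested. The 5 clusters of the hKLF6 OE mouse with AAI had 0.178 (PT-S1-S2-1), 0.0946 (PT-S1-S2-2), 0.0775 (PT-S3-1), 0.233 (PT-S3-2) and 0.234 (PT-S3-3), each the lowest of the 4 mice. In the 3 clusters that passed the filter the difference was -0.76 to -0.52. This was not confined to the PT: in hKLF6 OE the *Socs2* value was also lower with AAI in 11 of the 16 other clusters. It passed the filter in 7 of the 16, and in those 5 were lower and 0 higher. In single clusters of the 16, 14.9% to 43.9% of all genes were lower. Over the 16 clusters the mean of *Socs2* was 0.678 in control, 0.408 in control with AAI, 0.491 in hKLF6 OE and 0.306 in hKLF6 OE with AAI. In DCT/CNT that mouse had 0.229 against 0.669 to 0.812 in the others, while its DCT level of 1.17 lay within the 1.09 to 1.59 of the other mice. *Cish*, another STAT5 target and feedback inhibitor, was 0.692, 0.360, 0.418 and 0.182 in the normal PT of control, control with AAI, hKLF6 OE and hKLF6 OE with AAI, so it was also lowest in that mouse, with values mostly under the filter. *Bcl6* was 1.34, 1.41, 1.17 and 0.958 in the same 4 mice, and the direction in which STAT5 acts on it was not tested. *Igf1* itself was at 0.0142 to 0.0282 and *Socs3* below 0.00344 in the normal PT.

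*Igfbp4* differed among PT clusters with AAI, and the split ran within S3: PT-S3-1 did not go with PT-S3-2 and PT-S3-3. In PT-S3-2 it was 0.638 with and 1.05 without AAI in control, and 0.505 with and 1.14 without in hKLF6 OE. In PT-S3-3 it was 0.796 against 1.64 and 0.617 against 1.92. It was therefore lower with AAI in both of these clusters and both genotypes, as were 4.16% of 3557 genes. In PT-S1-S2-1, PT-S1-S2-2 and PT-S3-1 of control it was higher with AAI, by 0.24 to 0.32 on the log2(value + 1) scale, and in hKLF6 OE it stayed within 0.2. The mean over the 5 clusters hid this, with differences of 0.11 and -0.11. *Stat5b* was within 0.2 of no AAI in the mean normal PT of both genotypes, at 0.11 and -0.01.

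Of the other pathway genes, 25 passed in the normal PT of both genotypes. *Foxo1*, *Foxo3*, *Il6st* and *Stat3* were higher with AAI and *Igfbp5* and *Irs2* were lower, while 19 were neither. Over all genes 7.66% were higher and 5.83% lower. *Stat3* was 1.45 against 0.835 in control and 1.41 against 0.936 in hKLF6 OE. *Irs2* was 0.851 against 1.36 and 0.390 against 0.660, and *Foxo3* 2.38 against 1.29 and 2.29 against 1.39. *Jak2*, the kinase that growth hormone and prolactin receptors use, was 0.398, 0.415, 0.389 and 0.588 in the 4 mice, and passed the filter in hKLF6 OE only.

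Between genotypes without AAI, 1 of the 7 genes was lower in the normal PT of hKLF6 OE and 0 were higher, against 9.33% of 4041 genes lower and 7.84% higher. That gene was *Igf1r*, at 13.4 against 17.2, a difference of -0.34, and its value was lower in 5 of 5 normal PT clusters and in 14 of 16 others. In 11 of these 16 it was lower by at least 0.2. There 12.4% to 43.8% of all genes were lower in single clusters, and 15.1% to 51.6% of those over 100 kb. In the normal PT, 14.4% of genes over 100 kb were lower. *Ghr* was 68.4 against 77.1, with a difference of -0.17. With AAI, *Igf1r* was the other way, 19.9 in hKLF6 OE against 16.3, a difference of 0.27. There 6.32% of 3942 genes were higher, and 13.3% of those over 100 kb. *Ghr* was 96.0 against 123, a difference of -0.36, and *Socs2* 0.163 against 0.564, a difference of -0.43, where 7.74% of genes were lower. Both had a lower value in 5 of 5 normal PT clusters of hKLF6 OE with AAI. *Stat5b* and *Igfbp4* were within 0.2 between genotypes in the mean normal PT with and without AAI, and *Prlr* and *Stat5a* did not pass the filter.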

How the data were processed

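Kidney cortex nuclei of 4 mice were profiled by snRNA-seq on the 10x platform in 1 technical batch. The authors aligned reads to a mouse pre-mRNA reference (mm10) with Cell Ranger, kept nuclei with 200 to 6000 genes and at most 10% mitochondrial reads, and clustered them in Seurat (30 principal components, resolution 0.8). The deposited signal values are linear means of counts per 10000 per nucleus for each cluster in each mouse, a unit read from the column sums of 10000. Doublet removal is not described for these data. Cluster names were assigned from the order of the study's marker sheets and checked on marker genes, which leave EC-1 and DCT/CNT in doubt: *Flt1*, *Emcn* and *Pecam1* were highest in EC-2 and next in Macrophage, not in EC-1, and both doubtful clusters carried PT markers.

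Of 19632 rows, 23 with date-like names were left out. Differences used log2(value + 1), a minimum larger value of 0.5 and a threshold of 0.2, and understate the change of low genes. Normal PT was the unweighted mean of 5 clusters. The 7 genes, the 10 pathway lists and the markers were chosen with earlier results of these data known. Named pathway genes were the members, the 2 largest rises and falls of the lists in each injured cluster, and the closest patterns by r; *Stat3*, *Irs2*, *Foxo3*, *Jak2*, *Cish*, *Bcl6*, *Igf1* and *Socs3* in normal PT were named after their values were seen. No test was run, since each condition has 1 mouse. The code for the call was run on normal PT values of the control mouse with preset changes and no noise. That checks the arithmetic only and says nothing of the error of a call. Python 3.11.15, numpy 2.4.6, pandas 2.3.3 and matplotlib 3.10.9 were used, with spans from GENCODE vM21 and promoter windows from RefSeq.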

Additional observations from a re-analysis of the deposited data

Results flagged for a closer look

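*Igf1r* went opposite ways with AAI in PT-S3-2 of the 2 genotypes. In control mice it was 14.7 with and 19.2 without AAI, a log2(value + 1) difference of -0.36, and in hKLF6 OE mice 20.5 with and 12.6 without, a difference of 0.66. The hKLF6 OE difference exceeded the control difference by 1.03. With 1 mouse per condition this difference was not tested, and genotype and the single mouse cannot be told apart. Of the 7 genes in the normal PT clusters, this was the 1 case picked out.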

How the results depend on the processing

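No paired analysis was possible because each condition has 1 mouse, and for the same reason no replicate could be left out. Counts of genes past the threshold moved by over 1.5 times in 38 of 136 comparisons of a count with its alternative. The 7 genes: without a filter, 1 was higher in InjuredPT-A. At a threshold of 0.5 or 1, 1 was lower in InjuredPT-B, 0 were lower in hKLF6 OE without AAI, and 0 were higher with AAI in both genotypes. With the PT-S3, the PT-S1-S2 or the untreated normal PT as reference, 1 was higher in InjuredPT-B. With PT-S1-S2 alone, 0 were lower in hKLF6 OE without AAI. In the control mouse alone, 1 was higher in InjuredPT-A. In the hKLF6 OE mouse alone, 1 was higher in InjuredPT-A, 1 higher in InjuredPT-B, and 1 lower and 2 higher with AAI. The other pathway genes, in InjuredPT-A (10 higher, 8 lower): a minimum value of 2 left 4 higher and 5 lower, a threshold of 0.5 left 5 and 3, a threshold of 1 left 3 and 0, centring on the median left 6 higher, and the hKLF6 OE mouse alone had 13 lower. In InjuredPT-B (7 higher, 0 lower): 13 higher and 2 lower with a pseudocount of 0.1, 3 higher at a minimum value of 2, 2 and then 0 higher at thresholds of 0.5 and 1, 3 higher and 2 lower after centring, 11 higher against PT-S3, 2 lower against PT-S1-S2, 11 higher and 2 lower against untreated normal PT, 1 lower in the control mouse alone, and 14 higher and 1 lower in the hKLF6 OE mouse alone. Of 235 single values, 4 changed sign, each of *Igfbp4*: against PT-S3, InjuredPT-A of the control mouse was at 0.18 and InjuredPT-B at 0.20 and 0.23, and against PT-S1-S2, InjuredPT-A of the hKLF6 OE mouse was at -0.12. The segment used as reference sets these, given the gradient of *Igfbp4*; the cause of the other shifts was not tested. Splitting the background at a span of 100 kb, the PT marker ratio and single PT clusters were chosen after seeing the data. Depth and nuclei per column are unknown, which limits low values such as those of *Prlr*, *Stat5a* and *Socs2* most.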
